A study of Mus musculus with 32 samples.

Results

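Glycogen synthesis and breakdown in the liver was followed through 9 genes, Ugp2, Gys2, Gbe1, Pgm1, Pgm2, Pygl, Ppp1r3b, Ppp1r3c and Ppp1r3g, which were picked by name as enzymes of glycogen metabolism or as targeting subunits of glycogen-bound protein phosphatase 1. The choice rested on these roles, with earlier results of these data known. All 9 were among the 20076 genes of the count table, and all 9 were among the 11566 genes that passed the count filter and were tested. The RNA came from livers of male C57BL/6J mice, either knockout for Acadm (MCAD-KO, here KO) or wild-type (WT) littermates. Acadm encodes medium-chain acyl-CoA dehydrogenase (MCAD), an enzyme of mitochondrial fatty-acid oxidation. The study detected no MCAD protein in liver mitochondria of KO mice. Mice of each genotype received a semisynthetic low-fat (LF) or high-fat (HF) diet for 6 weeks, and were then either fasted for 16 h or left with their food (fed), which gives 8 groups of 4 mice. Ages were labelled from 7.5 to 16 with no unit. Of the 32 mice, 30 entered the tests: 3 WT LF fed, 3 KO HF fasted and 4 in each of the other 6 groups.

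Liver stores glucose as glycogen after a meal and releases it between meals. Glucose 6-phosphate is turned into glucose 1-phosphate by phosphoglucomutase, activated to UDP-glucose by UDP-glucose pyrophosphorylase, added to growing chains by glycogen synthase and rearranged by the branching enzyme, while glycogen phosphorylase removes glucose units again. Targeting subunits bring protein phosphatase 1 to the glycogen particle, where it activates the synthase and inactivates the phosphorylase, so that much of the control in liver works through phosphorylation of enzymes already present and is not seen in RNA levels.

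The genes lie on 9 different chromosomes of GRCm38, and 7 of the 9 have a promoter entry in the RefSeq tables of build GRCm38.p6. Some stretches just upstream of a RefSeq start are shown, those of Pygl and Gbe1, which both fell on fasting, and that of Ppp1r3c, the gene of the set whose fasting response passed the test of a difference between diets. They are written 5′ to 3′ on the strand of the gene, at chr12:70227684-70227933 (minus strand) for Pygl, chr16:70313699-70313948 (plus strand) for Gbe1 and chr19:36736654-36736854 (minus strand) for Ppp1r3c. The stretch of Ppp1r3c holds 201 bases, because the 49 bases nearest the start lie in an annotated exon, and the others hold 250 bases. The stretch of Pygl lies inside the GENCODE span of the gene, which starts at 70231488 on the minus strand. For Pygl the RefSeq start used here and the GENCODE start thus differ. Capitals mark an E-box, the motif bound by many basic helix-loop-helix factors.
Pygl: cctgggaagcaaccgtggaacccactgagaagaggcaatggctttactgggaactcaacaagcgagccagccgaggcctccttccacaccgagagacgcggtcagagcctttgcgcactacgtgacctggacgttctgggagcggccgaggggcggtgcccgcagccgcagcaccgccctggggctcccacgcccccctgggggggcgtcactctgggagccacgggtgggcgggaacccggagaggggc
Gbe1: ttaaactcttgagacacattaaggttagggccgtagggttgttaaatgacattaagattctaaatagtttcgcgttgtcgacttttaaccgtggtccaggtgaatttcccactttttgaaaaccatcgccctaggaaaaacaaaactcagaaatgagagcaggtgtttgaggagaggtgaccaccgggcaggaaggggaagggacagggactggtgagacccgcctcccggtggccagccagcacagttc
Ppp1r3c: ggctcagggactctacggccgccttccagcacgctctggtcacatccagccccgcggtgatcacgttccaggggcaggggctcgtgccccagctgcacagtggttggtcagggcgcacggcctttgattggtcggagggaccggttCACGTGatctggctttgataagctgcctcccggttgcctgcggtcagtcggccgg
The 250 bases before each start were searched on both strands for the E-box CACGTG, the cAMP response element TGACGTCA and the forkhead motif TGTTTAC, which is read as GTAAACA from the opposite strand, and none of these contains another. The single match among the members was the E-box of Ppp1r3c printed in capitals, whose first base lies 104 bases before the start. Over all 32851 RefSeq windows of this length, 6.02% held the E-box, 1.55% the cAMP response element and 3.17% the forkhead motif. A match describes the letters and not a bound site.

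Counts on genes ranged from 2031053 to 4292200 per mouse, with a median of 2899001, and levels are given as CPM, a gene's count scaled to a common library total with edgeR's TMM factors. Reads came from the 3′ ends of transcripts, so that CPM of different genes are not compared here. Acadm had a mean of 18.7 CPM (SD 8.01, n = 15) across KO mice against 452 CPM (SD 197, n = 15) across WT mice, and its counts did not overlap (26 to 94 against 566 to 2752). The hepatocyte markers summed to between 33848 and 53723 CPM in fed and between 35657 and 59433 CPM in fasted mice. On fasting, 4 of the 10 hepatocyte markers rose and 1 fell, and 2 of 5 stellate, 1 of 5 macrophage and 1 of 3 erythroid markers fell, while 2 hepatocyte markers and 1 stellate marker passed for diet, and the part of these shifts in the results was not tested. KO HF fasted replicate 4, left out, had 689 CPM of them and 35426 CPM of heart markers, against at most 59.4 CPM in the 30 mice. WT LF fed replicate 2, also left out, had 28292 CPM of hepatocyte markers and 1142 CPM of stellate cell markers, against at most 566 CPM in the 30 mice. Among the 30 mice, 4 held over 100 CPM of skeletal muscle or acinar pancreas markers, all on the HF diet: WT HF fed replicate 4, WT HF fasted replicates 2 and 4, and KO HF fed replicate 1. Fewer hepatocytes and less RNA per hepatocyte cannot be told apart in whole liver. P-values weigh differences of group means against the spread between mice. Intervals are for those differences under the fitted model, and not for the range of single mice.

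Fasting was the condition to which most of the set responded. Over the average of the 4 combinations of genotype and diet, 4 of the 9 genes fell (Pygl, Gbe1, Ugp2 and Ppp1r3b), 2 rose (Gys2 and Pgm1) and 3 did not pass (Ppp1r3c, Pgm2 and Ppp1r3g). A gene passed when its p from the edgeR quasi-likelihood fit, adjusted over all genes by Benjamini-Hochberg, was below 0.05. Of all genes tested, 18.9% passed, 9.14% in the lower and 9.77% in the higher direction. This balance depended on the scaling: 1130 genes rose and 1057 fell with TMM, and 765 rose and 1561 fell with total counts alone, where the same 4 members fell, Gys2 rose and Pgm1 did not pass. The median log2 fold change of the 9 genes was -0.70, against -0.0022 over all genes tested. That median is the value of Pgm2, which did not pass and was close to the detection limit. Pgm2 also passed the count filter only through fed mice, so the median is given as a description.

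Pygl encodes liver glycogen phosphorylase (ENSMUSG00000021069, chromosome 12, 70190811 to 70231488, minus strand). In WT mice it had 414, 489.8 and 498 CPM in LF fed and 187, 161, 141 and 218 CPM in LF fasted mice, and 361, 376, 391 and 449.6 CPM in HF fed and 235, 277, 216 and 206 CPM in HF fasted mice. In KO mice it had 368, 419, 409 and 432 CPM in LF fed and 158, 178, 215 and 144 CPM in LF fasted mice, and 332, 382, 395 and 460.1 CPM in HF fed and 334, 161 and 150.4 CPM in HF fasted mice. Pygl was thus below every fed mouse in 14 of the 15 fasted mice. The exception was KO HF fasted replicate 1, whose 334 CPM lay just above the lowest fed mouse. Its level fell from 412 ± 47.5 CPM (SD, n = 15) to 199 ± 53.7 CPM (SD, n = 15), a 2.09-fold lower level with a log2 fold change of -1.06 (SE 0.10, adjusted p = 1.1e-10). In order of the group means, the 4 fasted groups (174 to 233 CPM) lay below the 4 fed groups (392 to 467 CPM), and the ranges of neighbours overlapped within either set of 4 but not between WT HF fasted and KO HF fed, the neighbours at the boundary. An opposite-strand gene that overlaps Pygl, F730035M05Rik, had 0 counts in every mouse.

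Gbe1 encodes the glycogen branching enzyme (ENSMUSG00000022707, chromosome 16, 70313949 to 70569716, plus strand). It had 237, 268 and 307 CPM in WT LF fed and 137, 122, 115 and 159 CPM in WT LF fasted mice, and 289, 259.6, 365 and 316 CPM in WT HF fed and 137, 218, 177 and 204 CPM in WT HF fasted mice. In KO mice it had 234, 187, 283 and 331 CPM in LF fed and 109, 106, 154 and 119 CPM in LF fasted mice, and 249, 301, 373 and 240.4 CPM in HF fed and 201, 121 and 129 CPM in HF fasted mice. Fed and fasted mice did not overlap within any of the 4 combinations, where 10.1% (WT LF), 2.89% (WT HF), 6.95% (KO LF) and 5.19% (KO HF) of all genes had every fasted mouse below every fed one. The level fell 1.93-fold, with a log2 fold change of -0.95 (SE 0.10, adjusted p = 2.0e-09). The group means ran from 122 ± 22.2 CPM in KO LF fasted to 307 ± 44.9 CPM in WT HF fed mice (SD, n = 4 each), and all neighbours in this order overlapped.

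Ugp2 encodes UDP-glucose pyrophosphorylase, which makes the glucose donor of the synthase (ENSMUSG00000001891, chromosome 11, 21321138 to 21371201, minus strand). It had 232, 283 and 282 CPM in WT LF fed and 142, 133, 135 and 159 CPM in WT LF fasted mice, and 295, 278, 323 and 243 CPM in KO LF fed and 65.6, 167, 139 and 113 CPM in KO LF fasted mice. On the HF diet it had 242, 401, 352 and 286 CPM in WT fed and 237, 307, 196 and 186 CPM in WT fasted mice, and 262, 302, 309 and 255 CPM in KO fed and 197, 184 and 188 CPM in KO fasted mice. Fed and fasted mice overlapped only in WT HF mice, through WT HF fasted replicate 2 with 307 CPM, 1 of the mice with pancreas markers. In the other combinations, 10.1% (WT LF), 6.95% (KO LF) and 5.19% (KO HF) of all genes had every fasted mouse below every fed one. The fall was 1.73-fold, with a log2 fold change of -0.79 (SE 0.10, adjusted p = 1.0e-07). The opposite-strand gene Gm12043 had at most 2 counts per mouse.

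Gys2, the liver glycogen synthase (ENSMUSG00000030244, chromosome 6, 142422613 to 142473109, minus strand), moved the other way. Fed mice ranged from 56.2 to 95.1 CPM with a median of 63.5 CPM, and fasted mice from 58.2 to 151 CPM with a median of 98.7 CPM. In WT LF mice, 63.0, 57.2 and 60.8 CPM in the fed state stood against 120.1, 109.7, 89.0 and 78.0 CPM in the fasted state, with no overlap, where 9.99% of all genes had every fasted mouse above every fed one. In KO LF mice, 58.2, 69.8, 72.3 and 60.3 CPM stood against 70.0, 148, 85.8 and 145 CPM. The fasted KO mice were the most uneven: 148 and 145 CPM in LF replicates 2 and 4, 151 and 123 CPM in HF replicates 2 and 3, but 58.2 CPM in HF replicate 1, within the fed range. Over all groups Gys2 rose 1.56-fold, with a log2 fold change of 0.64 (SE 0.12, adjusted p = 5.8e-05). The 4 fed groups (60.3 to 74.0 CPM) preceded the 4 fasted groups (91.9 to 112 CPM) in order of the mean, and all neighbours overlapped.

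The phosphoglucomutases need a word on their names, because the mouse symbols Pgm1 and Pgm2 were exchanged over time. Pgm1 is here ENSMUSG00000025791 (chromosome 4, 99929414 to 99987294, plus strand), which RefSeq also lists under the older symbol Pgm2, and Pgm2 is ENSMUSG00000029171 (chromosome 5, 64092950 to 64128351, plus strand). Pgm1 ranged from 171 to 251 CPM in fed mice (median 209 CPM) and from 206 to 378 CPM in fasted mice (median 241 CPM). Its log2 fold change on fasting was 0.38 in WT LF and 0.47 in KO LF mice, but -0.02 in WT HF and 0.10 in KO HF mice. Over the average of these, Pgm1 rose 1.17-fold, with a log2 fold change of 0.23 (SE 0.08, adjusted p = 0.0377), and the ranges overlapped. That call was lost, with adjusted p from 0.0520 to 0.0755, when any 1 of 11 mice was left out: WT LF fed replicates 1 and 3, WT LF fasted replicate 4, WT HF fed replicate 2, WT HF fasted replicate 3, KO LF fed replicates 1 and 2, KO LF fasted replicate 1, KO HF fed replicate 1 and KO HF fasted replicates 2 and 3. Itgb3bp overlaps Pgm1 on the opposite strand and had at most 15 counts per mouse. Pgm2 was close to the detection limit, with 0 to 23 counts per mouse and 23 of 30 mice over 3 counts. It gave a log2 fold change of -0.70 (SE 0.40, adjusted p = 0.253). Of the 8 mice at or above the filter's cutoff for Pgm2, only WT LF fasted replicate 1 and KO HF fasted replicate 3 were fasted. The filter asked for at least 3 mice, so Pgm2 was tested only through fed mice. Its lower level on fasting is tied to that filter and is given as a description.

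**Figure D1:**
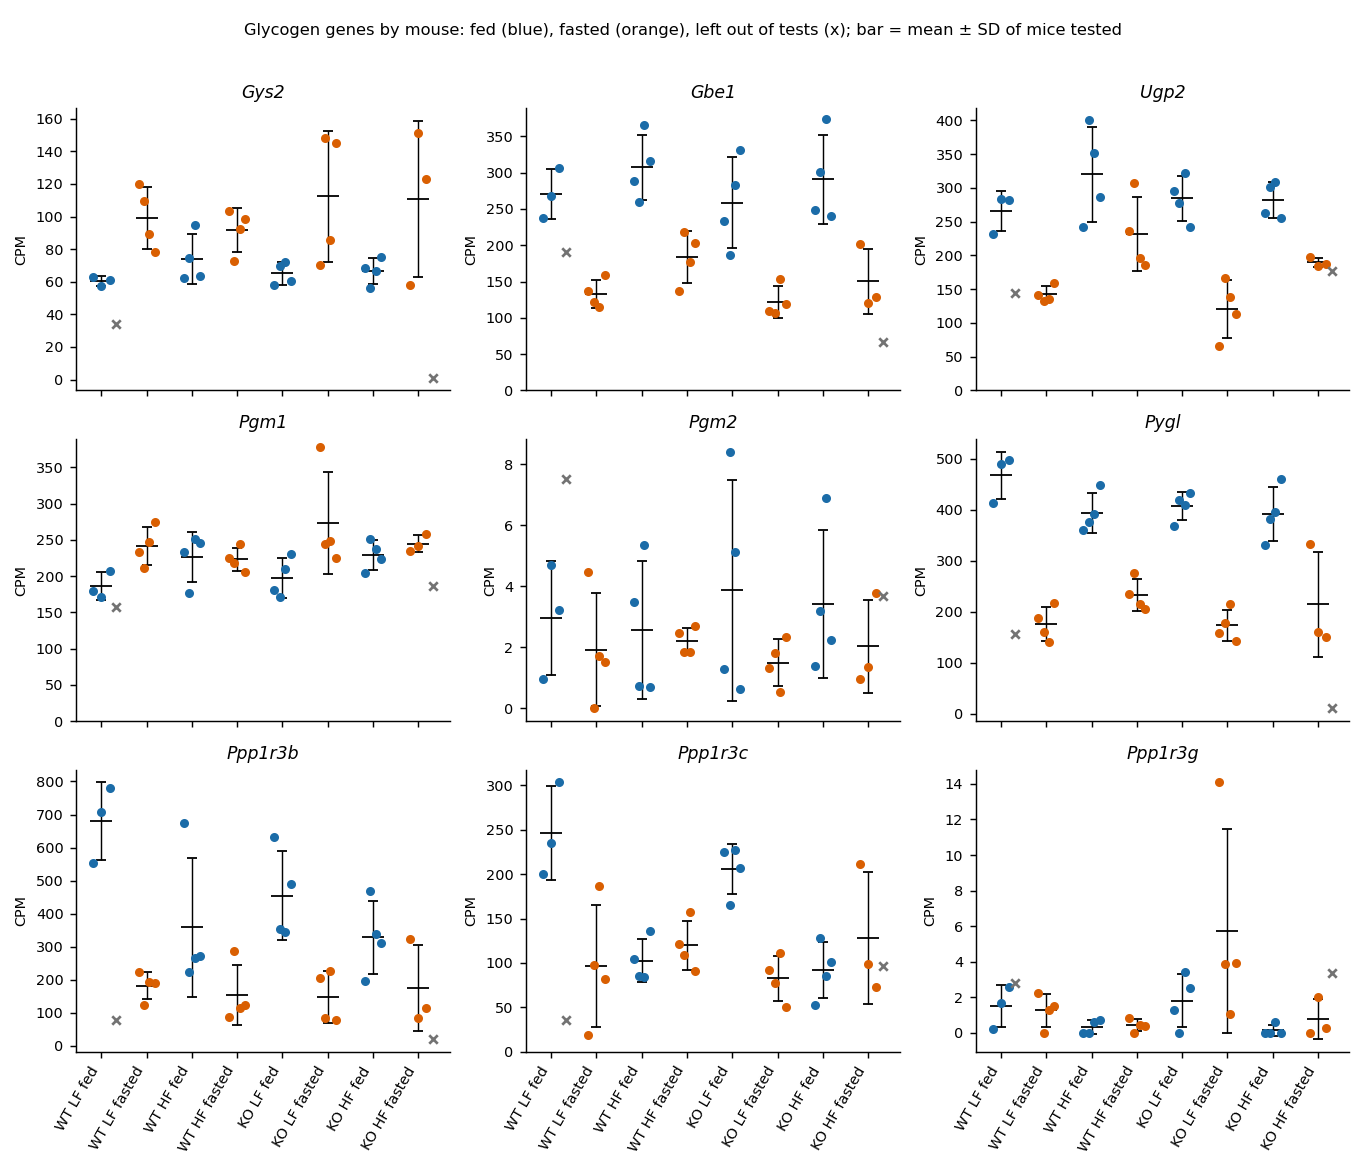
Level of each glycogen gene in CPM (linear axis) by group. Points are mice, blue fed and orange fasted, crosses are the 2 mice left out of the tests, and bars are mean ± SD of the mice tested. Pygl, Gbe1, Ugp2 and Ppp1r3b sit lower in the fasted than in the fed groups, and Gys2 sits higher.

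Of the targeting subunits, Ppp1r3b, the main hepatic one (ENSMUSG00000046794, chromosome 8, 35375739 to 35388139, plus strand), fell the furthest of the genes that passed. WT LF mice had 552, 709 and 780.2 CPM in the fed and 222, 124, 194 and 189 CPM in the fasted state, and WT HF mice had 673, 223, 266 and 272 CPM and 88.4, 287, 114 and 123 CPM. KO LF mice had 631, 353, 343 and 489 CPM in the fed and 206, 84.8, 226 and 76.8 CPM in the fasted state, and KO HF mice had 197, 468, 337 and 309 CPM and 323, 83.5 and 114 CPM. Fed and fasted mice were apart on the LF diet, where 10.1% (WT) and 6.95% (KO) of all genes had every fasted mouse below every fed one. They overlapped on the HF diet, where WT fed replicate 1, WT fasted replicate 2 and KO fasted replicate 1 were the high mice of their groups and KO fed replicate 1 was the low one. The fall was 2.67-fold, with a log2 fold change of -1.42 (SE 0.24, adjusted p = 1.4e-04). Without the 4 mice with muscle or pancreas markers it was -1.64 (adjusted p = 8.7e-05).

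Ppp1r3c encodes the subunit known as protein targeting to glycogen (ENSMUSG00000067279, chromosome 19, 36731731 to 36736653, minus strand). On the LF diet it had 200.2, 235 and 304 CPM in WT fed and 19.3, 97.7, 187 and 82.1 CPM in WT fasted mice, and 225, 165, 227 and 207 CPM in KO fed and 91.6, 77.1, 112 and 50.3 CPM in KO fasted mice. On the HF diet it had 104, 85.1, 84.4 and 137 CPM in WT fed and 121, 109, 157 and 91.4 CPM in WT fasted mice, and 52.1, 128, 85.4 and 101 CPM in KO fed and 212, 99.1 and 73.2 CPM in KO fasted mice. The 7 LF fed mice, at 165 CPM or more, thus stood above all 8 HF fed mice, at 137 CPM or less, whereas fasted mice of both diets overlapped. The average fasting effect was a log2 fold change of -0.49 (SE 0.22, adjusted p = 0.133), made up of -1.36 in WT LF, -1.32 in KO LF, 0.23 in WT HF and 0.48 in KO HF mice. It passed the test when WT LF fasted replicate 3 or KO HF fasted replicate 1 was left out (adjusted p = 0.0281 and 0.0434).

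**Figure D2:**
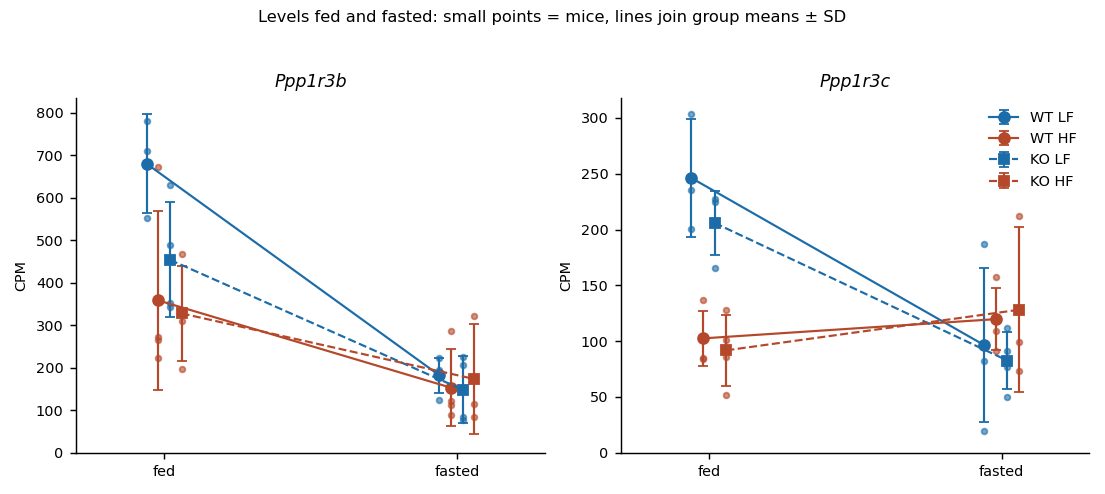
Ppp1r3b (left) and Ppp1r3c (right) in CPM (linear axis from 0) in fed and fasted mice. Small points are mice, large symbols with bars are group means ± SD (n = 3 or 4), circles with solid lines are WT, squares with dashed lines are KO, blue is LF and red is HF. The lines for Ppp1r3b go down in all 4 combinations, while those for Ppp1r3c go down on the LF diet from 246 and 206 CPM and have means on the HF diet that go from 102 to 119.7 CPM in WT and from 91.8 to 128 CPM in KO.

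Ppp1r3g, a further targeting subunit (ENSMUSG00000050423, chromosome 13, 35958839 to 35970388, plus strand), was barely detected, with 129 counts in all 30 mice together, 9 mice at 0, 10 mice at 1 to 3 counts and 11 mice above. The highest mouse was KO LF fasted replicate 1 with 32 counts (14.1 CPM), and the other fasted KO LF mice had 15, 2 and 10 counts. The fasting effect was a log2 fold change of 0.92 (SE 0.59, adjusted p = 0.319) and did not pass. The parts of depth and of the spread between mice in this result were not tested.

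Within single combinations of genotype and diet, the number of the 9 genes that passed was 4 in WT LF, 0 in WT HF, 7 in KO LF and 2 in KO HF mice, where 7.54%, 0.424%, 13.8% and 0.527% of all genes passed. In WT LF mice Pygl (-1.40), Gbe1 (-1.02), Ugp2 (-0.90) and Ppp1r3b (-1.90) fell on the log2 scale, where 3.79% of all genes fell. In KO LF mice Pygl (-1.23), Gbe1 (-1.09), Ugp2 (-1.23), Ppp1r3b (-1.62) and Ppp1r3c (-1.32) fell and Gys2 (0.79) and Pgm1 (0.47) rose, where 6.53% of all genes fell and 7.26% rose. In KO HF mice Gbe1 (-0.96, adjusted p = 0.0238) and Pygl (-0.87, adjusted p = 0.0343) fell, where 0.233% of all genes fell. In WT HF mice 4 of the 9 genes had an unadjusted p below 0.05, as had 1063 of the 11566 genes tested, and the values nearest to passing were Pygl with -0.75 (adjusted p = 0.0513) and Gbe1 with -0.74 (adjusted p = 0.0639). A pass in one combination and not in another does not show that they differ, and the test of that difference is given further on.

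**Figure D3:**
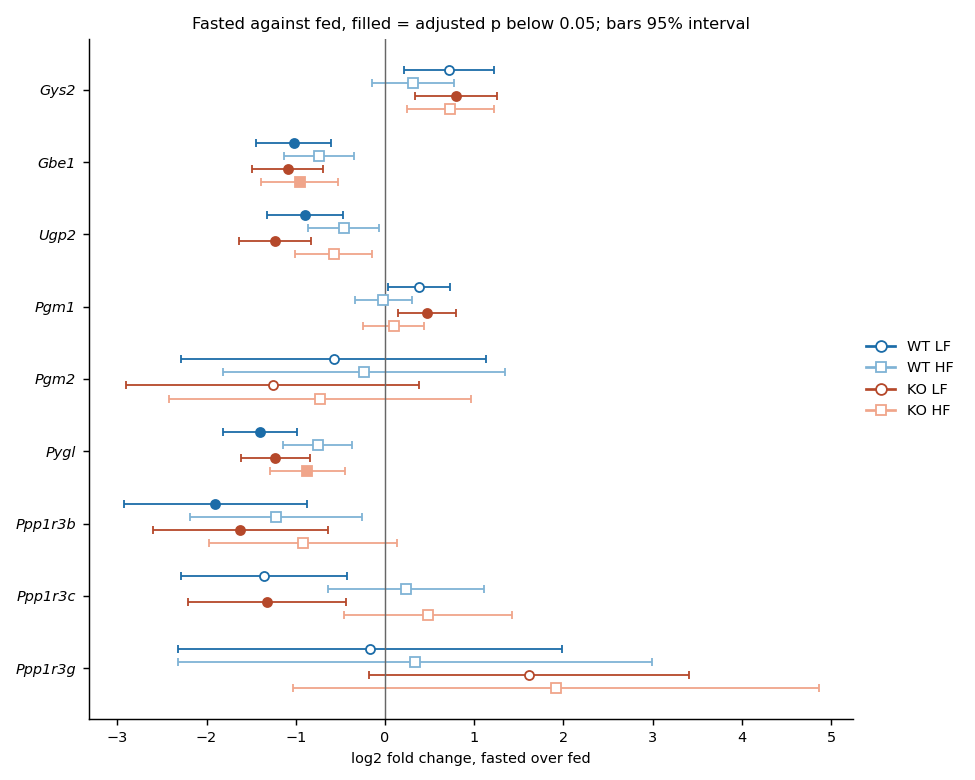
Log2 fold change of fasted over fed mice for each glycogen gene within the 4 combinations of genotype and diet, with confidence intervals. Filled symbols passed an adjusted p of 0.05 and open symbols did not. Pygl and Gbe1 lie left of 0 in all 4 combinations, and Ppp1r3c lies left of 0 on the LF diet and right of 0 on the HF diet.

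Several of these calls lay close to the threshold and were lost when a single mouse was left out, while the direction stayed the same. In KO HF mice the fall of Gbe1 no longer passed without fed replicate 2 or 3 or fasted replicate 2 or 3 (adjusted p from 0.0626 to 0.273), and that of Pygl without any of these or fed replicate 4 (0.0731 to 0.397). That of Ppp1r3b was lost in WT LF mice without fed replicate 3 or 4 or fasted replicate 2 (0.0562 to 0.0691) and in KO LF mice without fed replicate 1 or fasted replicate 2 or 4 (0.0698 to 0.0780). In KO LF mice Gys2 was lost without fasted replicate 2 or 4 (0.0659 and 0.0664), Pgm1 without fed replicate 1 or 2 or fasted replicate 1 (0.102 to 0.226), and Ppp1r3c without WT LF fed replicate 3, KO LF fed replicate 1, 3 or 4 or KO LF fasted replicate 1, 2 or 4 (0.0502 to 0.120). The rises of Gys2 and Pgm1 in KO LF mice were also lost with total counts alone (0.0504 and 0.208) and in a fit of the 2 groups alone (0.0708 and 0.226). Conversely, in WT HF mice Pygl passed without any 1 of 8 mice, with adjusted p down to 0.0103 without KO HF fasted replicate 1, and Gbe1 without any 1 of 4 mice, down to 0.0288 without WT HF fasted replicate 2.

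The sequencing lane moved with feeding state in part, since the labels place 7 fed and 9 fasted mice on lane 7 and 8 fed and 6 fasted mice on lane 8, with all WT LF fed mice on lane 8. These labels give 16 libraries to each lane, whereas the study's methods describe smaller pools per lane, a conflict that was not resolved here. Single lanes were fitted with additive terms for fasting, diet and genotype, and not with 1 mean per group. Their values weigh the combinations differently and are not like for like with the averages above. Pygl, Gbe1 and Ugp2 fell within either lane, by -0.78, -0.78 and -0.74 on the log2 scale on lane 7 and by -1.37, -1.03 and -0.83 on lane 8. Gys2 and Ppp1r3b passed on lane 8 (0.72 and -1.80) and not on lane 7 (0.54, adjusted p = 0.149, and -1.14, adjusted p = 0.150). Pgm1 passed on neither (0.25, adjusted p = 0.449, and 0.19, adjusted p = 0.282). With lane as a term in the model of all 30 mice, the same 6 genes passed.

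The 2 mice left out bear on these values. WT LF fed replicate 2 had 157 CPM of Pygl, 190.2 CPM of Gbe1, 144 CPM of Ugp2, 33.8 CPM of Gys2, 78.8 CPM of Ppp1r3b and 35.4 CPM of Ppp1r3c, each lower than the other 3 mice of its group. KO HF fasted replicate 4, the library with heart markers, had 11.3 CPM of Pygl and 1.22 CPM of Gys2. With all 32 mice, Pygl, Gbe1, Ugp2 and Ppp1r3b still fell (-1.10, -0.98, -0.75 and -1.41), while Gys2 (0.58, adjusted p = 0.147) and Pgm1 (0.23, adjusted p = 0.127) did not pass.

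Diet moved few of the genes. Ugp2 was 1.32-fold higher on the HF than on the LF diet over the average of the 4 combinations of genotype and feeding state, with a log2 fold change of 0.40 (SE 0.10, adjusted p = 0.0149), where 3.49% of all genes passed. Its LF and HF ranges overlapped over all mice (65.6 to 323 CPM and 184 to 401 CPM). They were apart among fasted mice, at 133 to 159 CPM on LF and 186 to 307 CPM on HF in WT and at 65.6 to 167 CPM on LF and 184 to 197 CPM on HF in KO, where 3.74% (WT) and 5.15% (KO) of all genes had every fasted HF mouse above every fasted LF mouse. The difference was 0.71 in WT fasted (adjusted p = 0.0570), 0.65 in KO fasted (adjusted p = 0.107), 0.27 in WT fed and -0.01 in KO fed mice, none of which passed alone. Within lane 7 it was 0.48 (adjusted p = 0.372) and within lane 8 0.26 (adjusted p = 0.371). With all 32 mice it was 0.44 (adjusted p = 0.0708).

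Ppp1r3g had 110 counts in the 15 LF mice and 19 counts in the 15 HF mice, with 10 LF mice and 1 HF mouse over 3 counts. The fitted log2 fold change of HF over LF was -2.37 (SE 0.57, adjusted p = 0.0126). The gene passed the count filter only through 4 LF mice, 3 of them KO LF fasted, so a difference by diet was built into its being tested, and it is given as a description. With all 32 mice the value was -2.21 (adjusted p = 0.0552), the left-out HF mouse alone holding 11 counts. Without the 4 mice with muscle or pancreas markers it was -2.30 (adjusted p = 0.0596), and on lane 8 it was -2.29 (adjusted p = 0.187).

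The other 7 genes did not pass for diet. Gbe1 had the value nearest to passing (0.28, SE 0.10, adjusted p = 0.115), and passed with total counts alone (0.34, adjusted p = 0.0450). The confidence intervals of Pygl (-0.10 to 0.30), Gys2 (-0.19 to 0.29) and Pgm1 (-0.11 to 0.22) on the log2 scale were within 0.31 of 0. Those of Ppp1r3b (-0.85 to 0.14) and Ppp1r3c (-0.82 to 0.09) were wider. In fed mice alone, Ppp1r3c was 2.40-fold lower on HF than on LF in WT (unadjusted p = 0.0099, adjusted p = 0.727, edgeR) and 2.25-fold lower in KO (unadjusted p = 0.0116, adjusted p = 0.472, edgeR). These differences did not pass across all genes, although no HF fed mouse reached the lowest LF fed mouse of its genotype, which held for 3.99% (WT) and 2.81% (KO) of all genes. Fitted on the 2 groups alone, they passed in WT (adjusted p = 0.0020) and in KO (adjusted p = 0.0197). None of the 9 genes passed for diet within a single combination of genotype and feeding state, where 0.0778% (WT fed), 1.12% (WT fasted), 0.00865% (KO fed) and 1.68% (KO fasted) of all genes did.

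**Figure D4:**
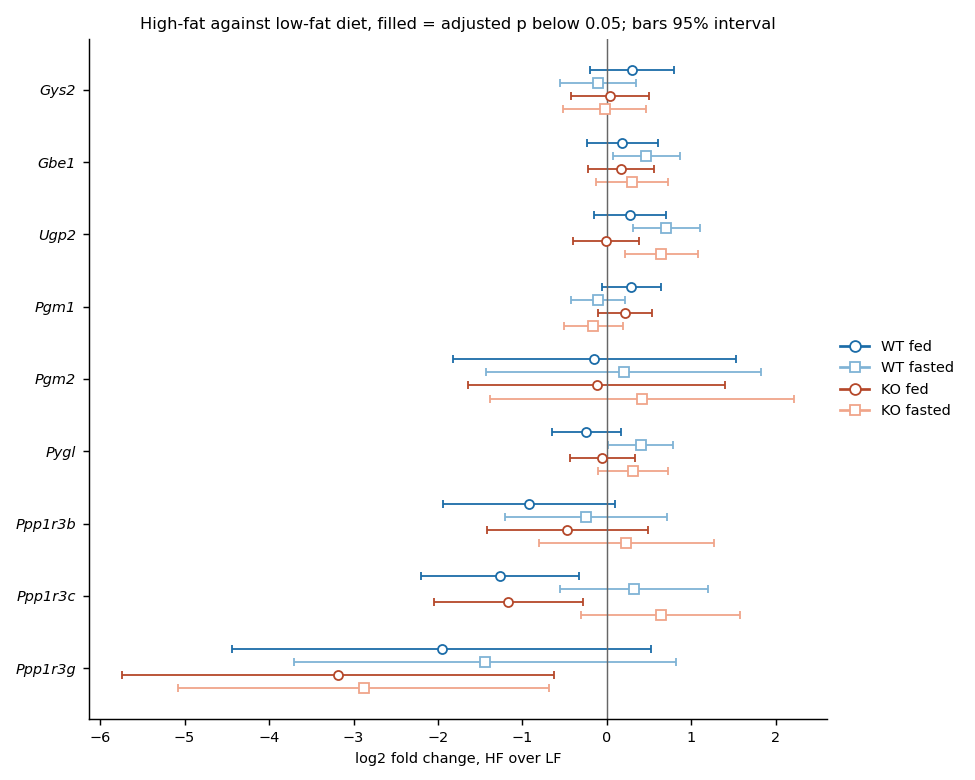
Log2 fold change of HF over LF mice for each glycogen gene within the 4 combinations of genotype and feeding state, with confidence intervals. All symbols are open, since none passed an adjusted p of 0.05 within a combination. Ugp2 lies right of 0 in fasted mice and Ppp1r3c left of 0 in fed mice.

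Loss of MCAD was not accompanied by a change of these genes that passed the test. None of the 9 passed for genotype, on average or in any of the 4 conditions, where 0.00865% of all genes, Acadm alone, passed each time by edgeR. At an unadjusted p below 0.05 there were 0 of 9 genes for the average effect, against 335 of all genes, and 1 in 1 condition, Ppp1r3g in LF fasted mice, against 684 of all genes there. Of the 4 mice through which Ppp1r3g passed the count filter, 3 were KO LF fasted, the higher group of that comparison. The log2 fold changes of KO over WT ran from -0.21 for Ppp1r3b to 0.56 for Ppp1r3g, with 0.10 for Gys2, -0.09 for Pygl and -0.14 for Gbe1. The confidence intervals were -0.14 to 0.34 for Gys2, -0.29 to 0.11 for Pygl, -0.35 to 0.06 for Gbe1, -0.36 to 0.05 for Ugp2 and -0.71 to 0.29 for Ppp1r3b. Differences within these intervals were not excluded with 15 mice a genotype. DESeq2 and voom also passed none of the 9. The effects of fasting and of diet did not differ between genotypes by the test either, with 0 of 9 genes and 0% of all genes passing for both (573 and 397 of all genes, and 0 of the 9, at an unadjusted p below 0.05).

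Whether fasting acted differently on the 2 diets was tested as the difference of the HF and LF fasting effects, averaged over genotypes. Ppp1r3c was the 1 gene of the 9 that passed, with a difference of 1.70 on the log2 scale (SE 0.44, adjusted p = 0.0384), where 2.46% of all genes passed. Its estimated fasting effect was below 0 on the LF diet and above 0 on the HF diet in both genotypes. On the HF diet the confidence intervals included 0 (-0.64 to 1.11 in WT and -0.46 to 1.42 in KO), so a rise on that diet was not shown. In KO the value above 0 rested on 1 mouse, since without KO HF fasted replicate 1 the effect on the HF diet was -0.09. The call was close to the threshold. The adjusted p rose to between 0.0504 and 0.108 when any 1 of 18 mice was left out (WT LF fed replicates 3 and 4, WT LF fasted 2 and 4, WT HF fed 1, 2 and 3, WT HF fasted 1, 2 and 3, KO LF fed 1, 3 and 4, KO LF fasted 2 and 4, KO HF fed 1 and 3, and KO HF fasted 1), the highest without KO HF fasted replicate 1. The difference itself stayed between 1.41 and 1.96 when each of the 30 mice was left out in turn. It was 1.48 with all 32 mice (adjusted p = 0.198), 1.79 without the 4 mice with muscle or pancreas markers (adjusted p = 0.102) and 1.66 with lane as a term (adjusted p = 0.0572). For Ugp2 (0.55, adjusted p = 0.158), Pygl (0.50, adjusted p = 0.193) and Pgm1 (-0.39, adjusted p = 0.249) the difference had an unadjusted p below 0.05, as it had for 1533 of all genes, and did not pass.

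Beside the 9 genes, 28 further genes of glycogen and glucose 6-phosphate metabolism were followed, of which 27 were matched in the table and 22 were tested. On fasting, 4 of the 22 rose and 2 fell, where 9.77% of all genes rose and 9.14% fell. The median log2 fold change of the 22 was 0.05 against -0.0022 for all genes. The median of the 9 genes was -0.70, the value of Pgm2, which did not pass and is tied to the count filter. Gckr went from 159.8 ± 19.0 CPM (SD, n = 15) in fed to 106 ± 24.0 CPM (SD, n = 15) in fasted mice (-0.61, SE 0.10, adjusted p = 6.3e-06). Gaa, the lysosomal glucosidase that degrades glycogen, went from 33.1 ± 5.09 CPM to 52.9 ± 13.1 CPM (0.65, SE 0.10, adjusted p = 6.8e-06). Slc37a4, which carries glucose 6-phosphate into the endoplasmic reticulum, went from 101 ± 21.5 CPM to 158 ± 80.2 CPM (0.54, SE 0.13, adjusted p = 0.0021). Stbd1, a glycogen-binding protein, went from 26.2 ± 8.84 CPM to 41.4 ± 13.2 CPM (0.71, SE 0.17, adjusted p = 0.0027). The other genes that passed were Pgm3, higher (0.69), and Slc2a2, the glucose transporter of the hepatocyte membrane, lower (-0.43).

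**Figure D5:**
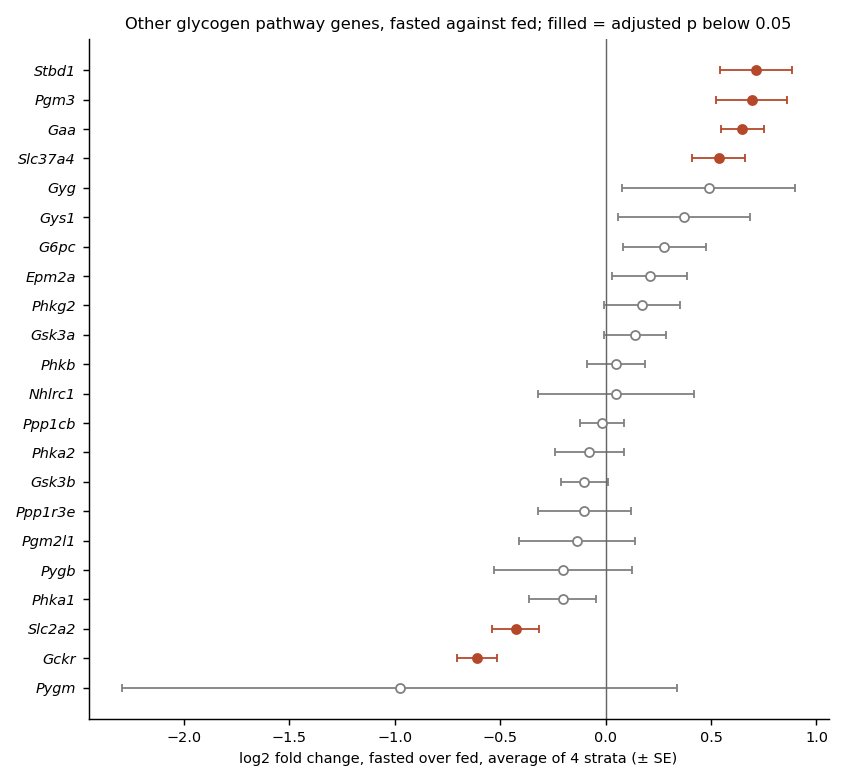
Log2 fold change of fasted over fed mice, averaged over genotype and diet, for the 22 further pathway genes that were tested, with bars of ± SE. Filled symbols passed an adjusted p of 0.05. Gckr (-0.61) and Slc2a2 (-0.43) lie left of 0 with filled symbols, and Gaa, Slc37a4, Stbd1 and Pgm3 lie right of 0.

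For diet, 1 of the 22 further genes passed, against 3.49% of all genes, and 8 had an unadjusted p below 0.05, as had 1830 of the 11566 genes tested. The gene that passed was Slc37a4, which was 1.59-fold lower on HF (log2 fold change -0.67, SE 0.13, adjusted p = 0.0016), with mean levels of 163 CPM on LF and 95.3 CPM on HF. For genotype 0 of the 22 passed by edgeR, where 0.00865% of all genes did, and 0 had an unadjusted p below 0.05. For the difference of the fasting effect between diets 0 of the 22 passed, where 2.46% of all genes did. Of the 22, 3 had an unadjusted p below 0.05 there, as had 1533 of the 11566 genes tested.

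Genes with the most similar pattern were sought for the 3 members whose group means spanned the widest range, Ppp1r3g (2.62 on the log2 CPM scale), Ppp1r3b (2.34) and Ppp1r3c (1.71). Likeness was the root mean square difference of the 8 group means of log2 CPM, each gene centred on its own mean, among 11565 genes. Nearest to Ppp1r3b were Zfand4 (0.175), Elovl6, an elongase of fatty-acid synthesis (0.219), and Cdh1, which encodes E-cadherin (0.224), where the median over all genes was 0.842. Nearest to Ppp1r3c were Depp1 (0.208), Carmil1 (0.230) and Hes1, a transcriptional repressor (0.236), with a median of 0.620. Nearest to Ppp1r3g were Pdk4, a kinase that inactivates pyruvate dehydrogenase (0.352), Leng9 (0.397) and Cdc42ep5 (0.405), and these distances rest on the few counts of Ppp1r3g. Ppp1r3g passed the count filter only through 4 LF mice, 3 of them KO LF fasted, the group with its highest mean. Its wide range and its pattern are therefore tied to that filter and are given as a description.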

How the data were processed

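Liver RNA of 32 mice was sequenced as 3′ QuantSeq libraries, 1 per mouse, on lanes that the labels give as 7 and 8. The authors aligned reads to the mouse genome and deposited whole-number counts per gene. The submitters' processing notes name HISAT 0.1.5, SAMtools 1.2 and HTSeq 0.6.1p1, and the strand setting of the counting is not given in the sources used here. The methods name Ensembl release 82 and the name of the deposited table release 76. No column of the table lacked a sample. Symbols and positions were taken from GENCODE M21 (GRCm38), and promoter sequences from RefSeq (GRCm38.p6).

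Counts of 30 mice were filtered with filterByExpr (minimum count 10, here 3.449 CPM in at least 3 mice), scaled by TMM and fitted in R 4.3.3 with edgeR 4.0.16, by the quasi-likelihood method with 1 mean per group. Contrasts averaged over the other factors, or within a single combination, were tested over 11566 genes with Benjamini-Hochberg adjustment. These contrasts share mice and are not independent. SE is the size of the log2 fold change over the square root of F, and confidence intervals (level 0.95) use that SE. Left out were replicate 4 of KO HF fasted and replicate 2 of WT LF fed mice. The steps were tested on simulated data. Alternatives were DESeq2 1.42.0, voom (limma 3.58.1), other scaling and filter, all 32 mice, lane, age and replicate terms, single lanes, 2 groups alone and each mouse left out. All 9 members were named. Of 28 further pathway genes, the 4 with the smallest p among those that passed per effect were named, and Pgm3 and Slc2a2 were added after their values were seen. Other genes of the list as first drawn up are not reported here. The members and lists were chosen with earlier results of these data known. Intervals cover counting and mouse-to-mouse error only. Replicate pairs within a group all differed beyond counting noise (chi-square per gene at least 4.17 over 42 pairs).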

Additional observations from a re-analysis of the deposited data

Results flagged for a closer look

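In groups of 4 mice, a mouse stood out where its gap to the nearest other mouse was a larger share of the range of the group than Dixon's critical value for 4 samples. This held for 3 of 54 pairs of a gene and a group, where chance gives about 1 in 20, or 2.7. Pgm1 had 378.12 CPM in KO LF fasted replicate 1 against 224 to 248 CPM in the other 3 mice, and its average fasting effect without that mouse was 0.18 (adjusted p = 0.0549, edgeR). Ppp1r3b had 672.98 CPM in WT HF fed replicate 1 against 223 to 272 CPM in the other 3 mice. Ppp1r3g had 0.59918 CPM in KO HF fed replicate 3, which is 2 counts, against 0 in the other 3 mice, and is within what a count of 0 allows. The fasting effect of Ppp1r3c differed between the diets by 1.695 on the log2 scale in the test of the difference itself. The cause of these values was not tested.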

How the results depend on the processing

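No change of direction was found among results that passed. The falls of Pygl, Gbe1 and Ugp2 on fasting passed in all alternatives over the 4 combinations and with each of the 30 mice left out. They also passed in the additive fits of single lanes. Fasting changed 6 members (5 to 7 with single mice left out), but 3 on lane 7 alone, where 344 of all genes passed, against 2187 in all 30 mice and 1449 on lane 8 alone. For diet Ugp2 passed and, as a description because of the count filter, Ppp1r3g, that is 2 members, but 3 with total counts alone (Gbe1 gained), 1 with voom, 1 without the mice holding muscle or pancreas RNA (an alternative chosen after seeing the data), 0 with all 32 mice, 0 on lane 7 alone and 0 on lane 8 alone, where 190, 81, 53 and 85 of all genes passed without the muscle and pancreas mice, with all 32 mice, on lane 7 and on lane 8, against 404. Genotype changed 0 members throughout and 1 gene of all (1 to 2 with single mice left out, 2 without WT HF fed replicate 2). The fasting effect differed between diets for 1 member (0 to 1 with single mice left out), but for 0 with no count filter, with all 32 mice, with lane as a term and without the muscle and pancreas mice. Of all genes 285 differed (170 without WT LF fed replicate 3, 178 without KO HF fasted replicate 1, at most 333), 430 with DESeq2, 22 with all 32 mice and 62 without the muscle and pancreas mice. Within combinations, all 32 mice gave 1 member for fasting in WT LF, 2 in KO LF and 1 in KO HF. Single mice left out gave 0 to 2 in WT HF, 4 to 7 in KO LF, 0 to 3 in KO HF, and for diet 0 to 1 in WT fasted and 0 to 1 in KO fasted mice. The 2 groups alone gave for fasting 5 in WT LF (Gys2 gained, adjusted p = 0.0074), 5 in KO LF (Gys2 and Pgm1 lost), 2 in WT HF and 1 in KO HF, and 1 for diet in each of WT fed, WT fasted and KO fed mice. Pgm1 was lost for fasting with total counts alone (0.14, adjusted p = 0.219), no filter (0.0773), an age term (0.0622), all 32 mice (0.127), either lane and without the muscle and pancreas mice (0.0684). Ppp1r3c passed for fasting with voom (-0.62, adjusted p = 0.0241). Replicate numbers are shared between groups but did not pair the mice: deviations of 98 same-numbered pairs had a median r of 0.01 (-0.20 to 0.17). With the replicate block, 6 members passed for fasting, 2 for diet and 0 for the difference between diets (Ppp1r3c 1.72, adjusted p = 0.0603), and Ppp1r3c in KO LF (0.0574) and Pygl in KO HF mice (0.0716) no longer passed. Total counts alone put the median of all genes for fasting at -0.0914 against -0.0022, a shift of -0.0892, and gave 388 genes higher and 99 lower for diet (261 and 143 with TMM) and 204 and 103 for the difference between diets (146 and 139). Ppp1r3g and Pgm2 rest on few counts, and the part of depth in their results was not tested. Other causes were not tested.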
